A study of Mus musculus with 24 samples.

Results

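Toll-like receptors are membrane receptors that recognise molecules of microbes and of damaged cells and signal mainly through the adaptor MyD88. Those at the cell surface mostly bind lipids and proteins. TLR2, which binds bacterial lipopeptides, works as a pair with TLR1 or TLR6, and TLR5 binds flagellin. Those in endosomes bind nucleic acids. TLR3 binds double-stranded RNA and signals through the adaptor TRIF, TLR7 and TLR8 bind single-stranded RNA, TLR9 binds unmethylated CpG DNA, and TLR13, which mice have and humans lack, binds bacterial ribosomal RNA. Extracellular cold-inducible RNA-binding protein (eCIRP) is a ligand of another family member, TLR4, and the study asked what it does to lung fibroblasts. The mRNA of the 9 other receptors that could be tested, Tlr1, Tlr2, Tlr5 and Tlr6 of the surface and Tlr3, Tlr7, Tlr8, Tlr9 and Tlr13 of the endosome, is described here. They were taken by gene name, 9 of 55291 names in the count files. Tlr11 and Tlr12 had a normalised count of at most 2.22 in any library and were not tested.

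Pulmonary fibroblasts came from WT and TLR4-/- mice, both C57BL/6, aged 4 to 8 weeks. The cells of each genotype were a pool from 3 to 4 lungs, grown to passages 3 to 6. After a night in Opti-MEM, a low-serum medium, they received PBS, mouse CIRP made as a recombinant protein (rmCIRP, 1 μg/ml), recombinant TGF-β1 of the mouse (rmTGF-β1, 2 ng/ml), a driver of fibroblast activation, or both proteins together, and were lysed at 24 h. These 8 conditions had 3 libraries each, 24 in all, with 29853346 to 39664606 reads counted on genes. Values below are normalised counts, the reads on a gene divided by its library's DESeq2 size factor. Log2 fold changes, also called log2 differences here, and adjusted p-values are from edgeR's quasi-likelihood test over all 16258 genes tested, with Benjamini-Hochberg adjustment, and a gene was called at an adjusted p below 0.1. The labels do not say that the 3 libraries of a condition came from separate cultures, so the p-values measure the spread between these libraries.

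Some measurements of the libraries bear on every comparison below. Tlr4 mRNA was not lower in the libraries labelled TLR4-/-. Its normalised counts were 927, 892 and 891 there with PBS and 718, 802 and 758 in WT. A count over a whole gene does not show which exons were read, so it cannot check a partial deletion, and the group is called by its label here. Fibroblast genes were abundant in all libraries, with 10 markers together at 681665 to 903950 normalised counts. The 13 macrophage markers of a list that includes Csf1r, Ptprc, Adgre1 and C1qa were also present. Together they had 87139 to 94799 normalised counts in WT libraries with PBS and 321308 to 368724 in libraries labelled TLR4-/- with PBS. Of the genes that define other immune cells, Cd3e (T cells) and Siglech (plasmacytoid dendritic cells) were at no more than 1.06 normalised counts in any library, and S100a9 (neutrophils) was at 0 in all. S100a8, usually made together with S100a9, was at 79.0 to 384 normalised counts. Other genes of the T cell and dendritic cell lists were counted too. Over all libraries the T cell list summed to 35.6 to 182 normalised counts and the dendritic cell list to 204 to 366. The endothelial list, which includes Pecam1, summed to 246 to 849.6 normalised counts. Xist, transcribed from the inactive X chromosome, had 4328 to 6096 normalised counts in libraries labelled TLR4-/- and 0 to 2.995 in WT libraries. Replicate 3 of the TLR4-/- label with both proteins stood apart. It was more than 0.5 on the log2 scale from the mean of its fellow libraries in 8.35% of 12311 well-counted genes, against 0.642% to 4.04% in the other libraries.

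The upstream sequence of 4 receptors is shown because their mRNA moved most with rmCIRP in WT cells, with Tlr1, Tlr2 and Tlr3 rising and Tlr13 falling. Each run holds the 250 bases before the RefSeq transcription start and the first 10 after it, 5′ to 3′. Capitals mark matches, on either strand, to any of 3 motifs: the NF-κB consensus, an interferon-stimulated response element (ISRE, 2 GAAA blocks with a 2-base gap) and the PU.1 sequence GAGGAAGT. For Tlr1, the first of its 2 RefSeq starts is shown.
Tlr1, GRCm38.p6, chr5:64933549-64933808, minus strand: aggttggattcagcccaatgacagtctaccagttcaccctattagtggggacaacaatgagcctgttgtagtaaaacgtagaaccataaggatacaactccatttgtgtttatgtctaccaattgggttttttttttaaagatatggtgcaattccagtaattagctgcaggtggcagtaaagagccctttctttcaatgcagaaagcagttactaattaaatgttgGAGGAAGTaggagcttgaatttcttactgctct
Tlr2, GRCm38.p6, chr3:83841599-83841858, minus strand: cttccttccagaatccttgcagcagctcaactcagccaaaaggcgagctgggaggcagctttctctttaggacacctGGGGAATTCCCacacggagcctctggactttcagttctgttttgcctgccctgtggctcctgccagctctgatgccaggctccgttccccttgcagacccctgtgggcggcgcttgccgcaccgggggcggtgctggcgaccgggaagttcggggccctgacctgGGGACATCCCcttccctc
Tlr3, GRCm38.p6, chr8:45410371-45410630, minus strand: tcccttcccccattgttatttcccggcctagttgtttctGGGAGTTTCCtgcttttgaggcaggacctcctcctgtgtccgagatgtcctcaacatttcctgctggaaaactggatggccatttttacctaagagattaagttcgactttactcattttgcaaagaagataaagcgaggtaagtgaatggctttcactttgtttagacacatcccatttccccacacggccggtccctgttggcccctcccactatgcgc
Tlr13, GRCm38.p6, chrX:106143025-106143284, plus strand: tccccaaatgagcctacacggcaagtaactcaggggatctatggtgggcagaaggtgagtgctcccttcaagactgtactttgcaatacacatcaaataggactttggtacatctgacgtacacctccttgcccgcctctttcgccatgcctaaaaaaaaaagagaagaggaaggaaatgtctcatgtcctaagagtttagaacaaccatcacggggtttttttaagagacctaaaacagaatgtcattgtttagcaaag
Of 32544 mouse promoters of 300 bases, 4.53% held the NF-κB motif, 3.45% the ISRE and 3.11% the PU.1 sequence. Tlr2 had NF-κB matches starting 173, 172 and 8 bases before the start, of which the first and second overlap, and Tlr3 had one that starts 211 bases before it. Tlr1 had the PU.1 sequence 23 bases before the start shown, and none of the 3 motifs at the second of its starts. In the window of Tlr13, and in those of Tlr5 and Tlr8, none of the 3 motifs was found. Tlr6 had overlapping ISRE matches 116 and 110 bases before the first of its starts and none at the second, and Tlr9 had the PU.1 sequence 10 bases after its start. RefSeq promoters were found for 8 of the 9 receptors. These matches describe letters in a window and do not show that a factor binds.

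In WT cells, rmCIRP alone raised 5 of the 9 receptors and lowered 2. Over all genes tested, 19.8% were called higher and 24.1% lower in this comparison. For 50.8% of all genes tested, the rmCIRP and PBS libraries did not overlap. The surface receptors Tlr1 and Tlr2 and the endosomal receptor Tlr3 rose most, Tlr7 rose less, and Tlr13 fell. The calls of Tlr6 (higher) and Tlr5 (lower) were close to the threshold, and DESeq2, which called 5 of the 9 receptors, called neither. In bulk RNA, fewer cells of a type and less RNA per cell cannot be told apart.

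Tlr2, the common partner of the lipopeptide receptors, had 783, 849 and 889.9 normalised counts with PBS and 2789, 2407 and 2584 with rmCIRP. Every rmCIRP library was above every PBS library, a log2 difference of 1.62 (SE 0.10, adjusted p = 8.6e-12, edgeR). Tlr1, a partner of TLR2, went from 48.1, 70.9 and 62.45 to 195, 185 and 187 normalised counts. The groups did not overlap, and the log2 difference of 1.64 (SE 0.13, adjusted p = 7.3e-10, edgeR) was close to that of Tlr2. Tlr6, the other partner of TLR2, had 123, 126 and 142 normalised counts with PBS and 157, 153 and 154 with rmCIRP. Its libraries did not overlap either, but the difference was small, with a log2 difference of 0.25 (SE 0.10, adjusted p = 0.066, edgeR), and DESeq2 did not call it (adjusted p = 0.111). Tlr5 was at the low end of what could be counted, at 24.1, 11.98 and 12.5 normalised counts with PBS and 12.7, 7.20 and 8.89 with rmCIRP. The groups overlapped, and the log2 difference of -0.77 (SE 0.32, adjusted p = 0.067, edgeR) became -0.34 (adjusted p = 0.555) without WT PBS replicate 1.

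Among the endosomal receptors, Tlr3 had the largest change. It had 226, 209 and 231 normalised counts with PBS and 949.7, 730.5 and 1045 with rmCIRP. The groups were far apart, with a log2 difference of 2.03 (SE 0.13, adjusted p = 2.1e-11, edgeR). Tlr7 went from 296, 298 and 312 to 472, 496 and 529 normalised counts, also without overlap, and rose by 0.72 on the log2 scale (SE 0.10, adjusted p = 3.3e-06, edgeR). Tlr8, its neighbour on the X chromosome, had 245, 227 and 256 normalised counts with PBS and 231, 214 and 301 with rmCIRP. Those groups overlapped, and the log2 difference was 0.04 (SE 0.13, adjusted p = 0.86, edgeR). Tlr13 moved the other way, from 460.0, 529 and 499 normalised counts to 246, 217 and 287. All 3 rmCIRP libraries lay below all PBS libraries, and the log2 difference was -0.99 (SE 0.10, adjusted p = 7.1e-08, edgeR). Tlr9 had 3.95 to 6.74 normalised counts in these 6 libraries, and no difference was detectable at this depth (-0.46, SE 0.50).

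**Figure D1:**
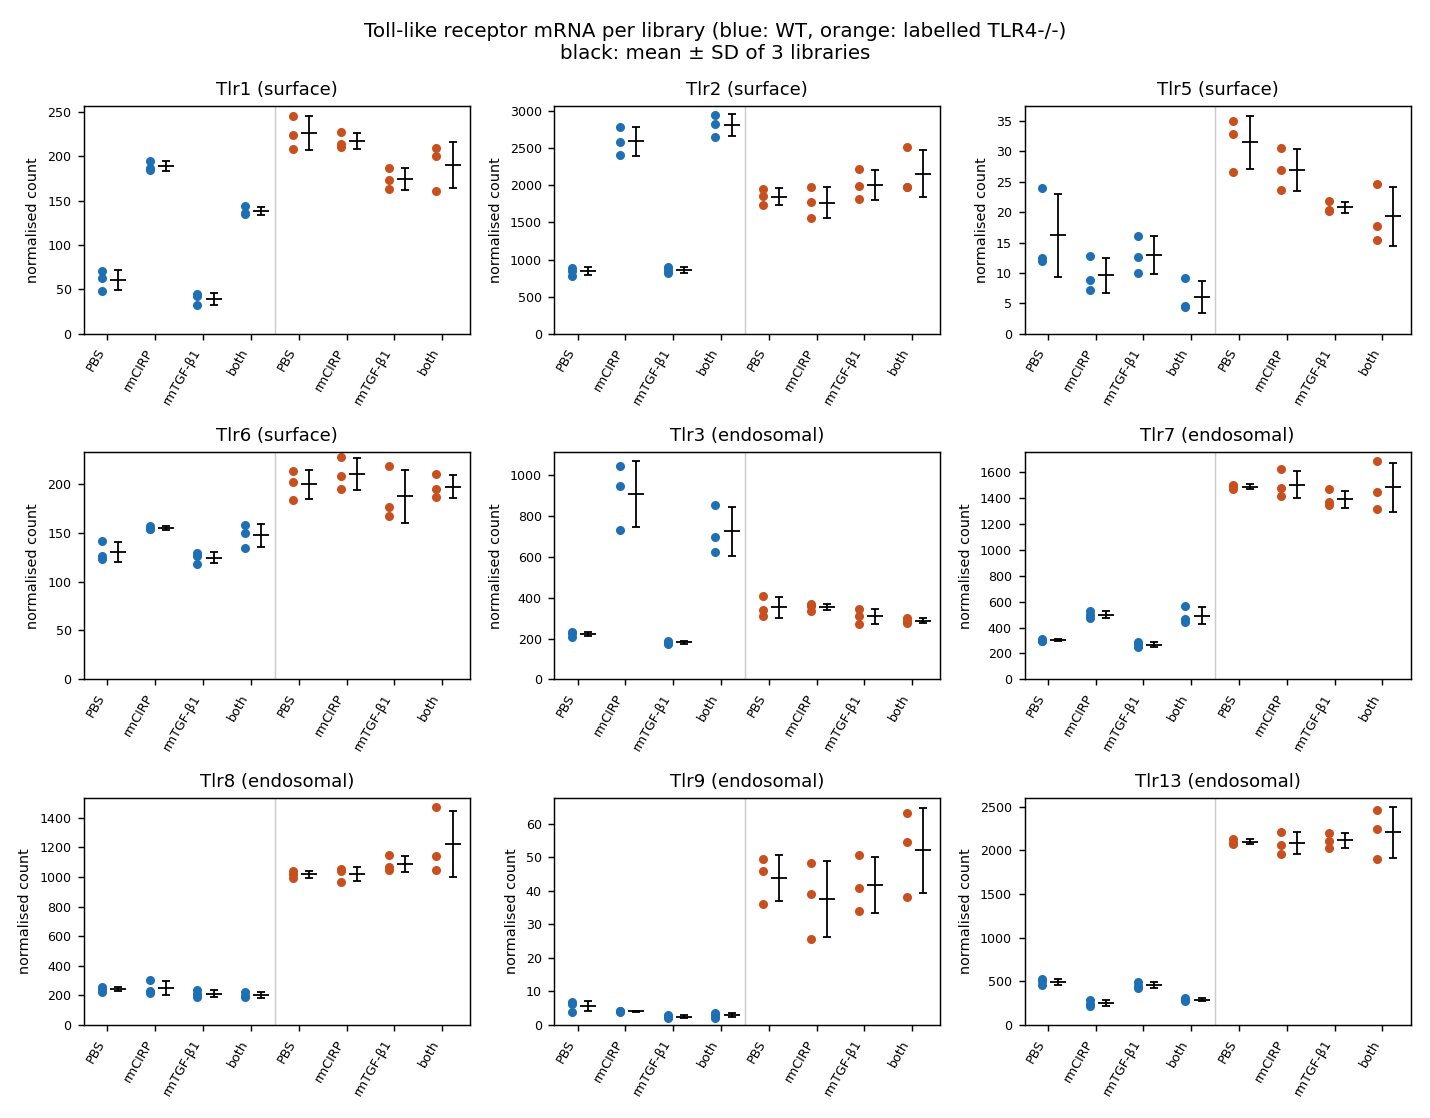
Normalised counts (y axis, from 0) of the 9 receptors in each of the 24 libraries by treatment (x axis; both is rmCIRP with rmTGF-β1), blue for WT and orange for the TLR4-/- label, with the mean ± SD of 3 libraries in black. Tlr2 and Tlr3 sit highest in WT cells given rmCIRP, with and without rmTGF-β1, while Tlr7, Tlr8, Tlr9 and Tlr13 sit highest in all orange groups, whatever the treatment. Tlr9 passed the filter on low counts only through the TLR4-/- label.

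The macrophage markers moved in both directions. In WT cells given rmCIRP, 4 of 13 rose and 8 fell, with a median log2 fold change of -0.32 against -0.02 over all genes, and their summed level was 73637 to 78171 normalised counts. Tlr1, Tlr2 and Tlr3 each had a higher log2 fold change than 12 of the 13 markers, Fcgr1 being the exception at 2.26. Tlr7 was above 11 of the markers and Tlr6 above 9. Tlr13, at -0.99, and Tlr5, at -0.77, were below all 13, of which Mrc1, the mannose receptor, was lowest at -0.71. Genes of other immune lists also moved between PBS and rmCIRP in WT. The neutrophil list went from 130 to 158 normalised counts to 299 to 350, of which S100a8 was 117 to 144 and 257 to 300.3, and the dendritic cell list from 204 to 234 to 281 to 315. Pax5, a transcription factor known from B cells, was at 0 to 2.00 normalised counts with PBS and 36.0 to 68.2 with rmCIRP. The T cell list went down, from 128 to 182 to 35.6 to 61.55. Only 1 of its 4 genes had enough counts to be tested. Of the 4 dendritic cell genes 2 were tested, and 1 of them was called higher. These sums therefore rest on few genes and do not show that such cells were present. The part of macrophages or other cells in the receptors' changes was not tested.

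The same comparison was made among WT cells given rmTGF-β1. Again 5 receptors were higher with rmCIRP and 2 lower, where 20.5% of all genes tested were called higher and 21.7% lower. None of these libraries entered the comparison of rmCIRP with PBS. The cells came from the same WT pool, however, and edgeR was fitted to all 24 libraries together, so the 2 comparisons are not independent. Tlr2 rose from 864, 814 and 898 to 2655, 2823 and 2950.0 normalised counts, and Tlr3 from 189.6, 180.0 and 173 to 696, 624 and 857. Neither pair of groups overlapped. The log2 fold changes were 1.80 for Tlr1 (SE 0.14), 1.70 for Tlr2 (SE 0.10), 2.00 for Tlr3 (SE 0.13) and 0.87 for Tlr7 (SE 0.10), with adjusted p-values from edgeR of 3.7e-12 to 3.2e-07. Tlr6 was called at 0.24 (SE 0.10, adjusted p = 0.076, edgeR), but not by DESeq2 (adjusted p = 0.128). Tlr5, at 4.43 to 9.18 normalised counts with both proteins and 10.00 to 16.1 with rmTGF-β1, had a log2 difference of -1.05 (SE 0.37, adjusted p = 0.032, edgeR). That call was lost without WT rmTGF-β1 replicate 1 or without replicate 2 or 3 of both proteins (adjusted p of 0.111 to 0.126). Tlr13 had 493, 421 and 451 normalised counts with rmTGF-β1 and 289.6, 276 and 309 with both proteins. Its groups did not overlap, and it fell by 0.65 on the log2 scale (SE 0.10, adjusted p = 2.8e-05, edgeR). Tlr8 (-0.06, SE 0.14) and Tlr9 (0.20, SE 0.65) were not called.

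Whether rmTGF-β1 altered the response to rmCIRP was tested as the difference between these responses. None of the 9 receptors was called by edgeR or by DESeq2, and 1 had an unadjusted p below 0.05. Over all genes, 0.0492% were called by edgeR and 5.64% had an unadjusted p below 0.05. The receptor with the lowest p was Tlr13, with a difference of 0.35 on the log2 scale (SE 0.14, adjusted p = 0.81, edgeR). Tlr1, Tlr2, Tlr3 and Tlr7 had differences of 0.16 (SE 0.20), 0.08 (SE 0.14), -0.03 (SE 0.19) and 0.15 (SE 0.14).

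By itself, rmTGF-β1 lowered Tlr1, in both genotype labels, and few other receptors were called. In WT cells Tlr1 had 44.4, 32.0 and 42.3 normalised counts with rmTGF-β1, all below the PBS libraries. Of all genes tested, 29.7% had groups that did not overlap in this comparison. The log2 difference of Tlr1 was -0.61 (SE 0.16, adjusted p = 0.020, edgeR), and 6.65% of all genes were called lower. This was the one receptor called there, and the call was lost without WT PBS replicate 2 (adjusted p = 0.132) or WT rmTGF-β1 replicate 2 (adjusted p = 0.124). In the libraries labelled TLR4-/-, Tlr1 had 208, 225 and 246 normalised counts with PBS and 163, 187 and 174 with rmTGF-β1. These did not overlap either, with a log2 difference of -0.37 (SE 0.11, adjusted p = 0.018, edgeR). Tlr5 was called with it, going from 26.7, 35.0 and 32.9 to 21.8, 20.2 and 20.4 normalised counts, a log2 difference of -0.59 (SE 0.24, adjusted p = 0.098, edgeR) that DESeq2 did not call (adjusted p = 0.207). In that comparison 11.7% of all genes were called lower, and 33.8% had groups that did not overlap. A difference between the genotype labels in the response to rmTGF-β1 was not called for any receptor, by edgeR or DESeq2. In edgeR, 0 of 9 had an unadjusted p below 0.05, against 10.4% of all genes, and 0.0861% of all genes were called.

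In the libraries labelled TLR4-/-, none of the 9 receptors was called with rmCIRP against PBS. The percentage of all genes called was 0%, with edgeR. None of the receptors had an unadjusted p below 0.05, DESeq2 called none, and of all genes 1136 (6.99%) had an unadjusted p below 0.05. Tlr2 had 1957, 1738 and 1853 normalised counts with PBS and 1776, 1554 and 1976 with rmCIRP. Tlr3 had 407, 312 and 339 with PBS and 368, 359 and 337 with rmCIRP, and Tlr13 had 2073, 2087 and 2132 with PBS and 2064, 1960.0 and 2214 with rmCIRP. In each of the 9 receptors the 2 groups overlapped, and 13.7% of all genes had groups that did not. The log2 fold changes ran from -0.22 (Tlr9, SE 0.21) to 0.08 (Tlr6, SE 0.09), and those of Tlr1, Tlr2 and Tlr3 were -0.05 (SE 0.10), -0.06 (SE 0.09) and 0.01 (SE 0.13).

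When rmTGF-β1 was present, rmCIRP again led to no call among the receptors in this label, by edgeR or DESeq2, and none had an unadjusted p below 0.05. Over all genes, 2.69% were called by edgeR and 17.9% had an unadjusted p below 0.05. The highest log2 fold changes were those of Tlr9 at 0.29 (SE 0.20) and Tlr8 at 0.16 (SE 0.10). This comparison contains the library that stood apart. In it Tlr8 had 1473 normalised counts against 1142 and 1050 in its fellow libraries, and Tlr2 had 2522 against 1978 and 1972. Pecam1, an endothelial gene, had 191 normalised counts in it against 62.1 and 53.4. Without it the log2 fold changes of Tlr2, Tlr7 and Tlr13 were -0.03, -0.02 and -0.03, and again no receptor was called. Over all genes, 437 were called with every library and 1 without it, and 0 to 2674 with any single library of the comparison left out.

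**Figure D2:**
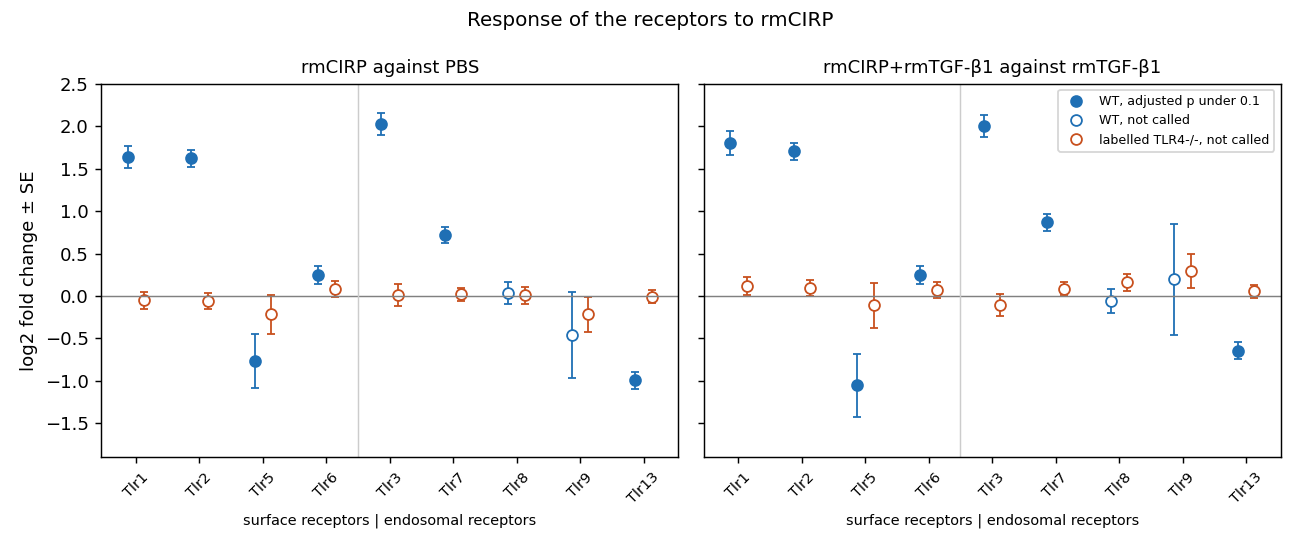
Log2 fold change ± SE (y axis) of each receptor (x axis) with rmCIRP against PBS (left) and with both proteins against rmTGF-β1 (right), in WT (blue) and in libraries labelled TLR4-/- (orange), with filled points for an adjusted p below 0.1 in edgeR. In both panels Tlr1, Tlr2 and Tlr3 lie above 1.5 in WT and between -0.11 and 0.12 in the TLR4-/- label, and no orange point is filled.

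Whether the labels differed in their response to rmCIRP was tested as an interaction, which uses the same PBS and rmCIRP libraries as above. The difference was called for 5 receptors, 4 with a smaller response in the TLR4-/- label and 1, Tlr13, with a higher value there, where 14.3% of all genes were called lower and 17.1% higher. The difference, TLR4-/- label minus WT, was -1.69 for Tlr1 (SE 0.16, adjusted p = 7.3e-08), -1.68 for Tlr2 (SE 0.13, adjusted p = 3.0e-09), -2.01 for Tlr3 (SE 0.18, adjusted p = 2.4e-08) and -0.70 for Tlr7 (SE 0.12, adjusted p = 0.00021), all with edgeR. Tlr13 fell in WT and was not called in the other label, a difference of 0.98 (SE 0.13, adjusted p = 4.8e-06, edgeR). Tlr5, Tlr6, Tlr8 and Tlr9 were not called, at 0.55 (SE 0.40), -0.17 (SE 0.14), -0.03 (SE 0.17) and 0.24 (SE 0.54).

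With PBS alone, all 9 receptors were called higher in the libraries labelled TLR4-/- than in WT, and 23.2% of all genes were called higher. None of the receptors' groups overlapped, as was so for 51.7% of all genes. The cells of each label were also a pool of lungs, and Xist and the macrophage markers differed along the same line. A difference of genotype and a difference of pool, cell make-up or Xist status therefore cannot be told apart. This holds for every comparison of the labels here. Tlr9 passed the filter on low counts only through the libraries labelled TLR4-/-, as none of the 12 WT libraries was above its limit, and Tlr5 was above it in 6 WT libraries. A gene that passes this way had to differ, so the call of Tlr9 is no support and its values are given without a test. The other 7 receptors were above the limit in all 24 libraries.

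Among the endosomal receptors, Tlr7, Tlr8 and Tlr13 differed by about the same amount and Tlr3 by less. Tlr7 had 296, 298 and 312 normalised counts in WT and 1465, 1490.0 and 1500.0 in the TLR4-/- label, a log2 difference of 2.29 (SE 0.09, adjusted p = 1.9e-15, edgeR). Tlr8 had 996, 1018 and 1043 in that label, 2.07 above WT on the log2 scale (SE 0.12, adjusted p = 9.9e-13, edgeR), and Tlr13 was higher by 2.08 (SE 0.09, adjusted p = 4.4e-15, edgeR). Tlr9 had 6.74, 3.99 and 6.25 normalised counts in WT and 49.4, 36.0 and 45.8 in that label. Tlr3 was higher by 0.67 (SE 0.14, adjusted p = 0.00042, edgeR). Of the surface receptors, Tlr1 was higher by 1.90 (SE 0.12, adjusted p = 1.7e-11, edgeR), from 60.5 ± 11.5 to 226 ± 18.8 normalised counts (SD, n = 3). Tlr2 was higher by 1.14 (SE 0.10, adjusted p = 2.0e-09, edgeR), from 841 ± 53.7 to 1849 ± 109.6. Tlr5 and Tlr6 were higher by 0.94 (SE 0.25, adjusted p = 0.0049, edgeR) and 0.61 (SE 0.10, adjusted p = 3.1e-05, edgeR).

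The 13 macrophage markers moved in the same direction, and all 13 were called higher, with log2 fold changes of 1.49 (Mertk) to 2.92 (Aif1) and a median of 2.19. Their part in the receptors' differences was not tested. The log2 fold changes of Tlr1, Tlr7, Tlr8 and Tlr13 lay within the range of the markers, while those of Tlr2, Tlr3, Tlr5 and Tlr6 lay below all 13. Tlr9 is not placed, because its WT counts were below the limit of the filter. The epithelial list summed to 41.6 to 61.6 normalised counts in WT and 189 to 199 in the TLR4-/- label, and the endothelial list to 575.5 to 849.6 and 285 to 366.5. The sums of the dendritic cell, neutrophil and T cell lists overlapped between the labels. Of 10 fibroblast markers, 1 was higher and 3 lower, with a median of 0.00. Tlr7, Tlr8 and Tlr13 are on the X chromosome, and Xist separated the labels as given above. Of 507 X-linked genes tested, 24.3% were higher in the TLR4-/- label, with a median of -0.04, against 23.3% and a median of -0.02 for 15470 genes elsewhere. With rmCIRP, 36.7% of the X-linked genes were higher, with a median of 0.04, against 30.3% and -0.00108 for the genes elsewhere. The part of the X chromosome in these 3 genes was not tested.

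**Figure D3:**
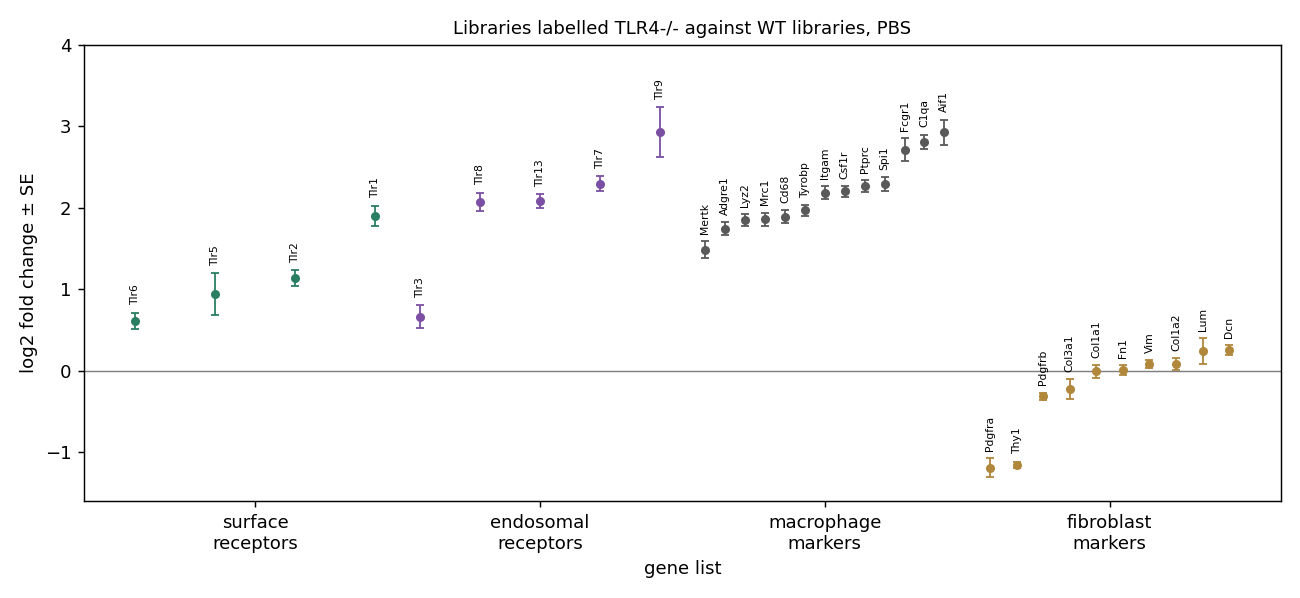
Log2 fold change ± SE (y axis) between PBS libraries labelled TLR4-/- and WT for the surface receptors, endosomal receptors, 13 macrophage markers and 10 fibroblast markers (x axis, each list ordered by its value). Tlr1, Tlr7, Tlr8 and Tlr13 lie among the macrophage markers, which run from 1.49 to 2.92. Tlr2, Tlr3, Tlr5 and Tlr6 lie below them and above the median fibroblast marker. Tlr9 is drawn as well, but it passed the filter on low counts only through the TLR4-/- label.

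With rmCIRP in both labels, the order turned for 2 receptors. Tlr2 was lower in the TLR4-/- label, at 1776, 1554 and 1976 normalised counts against 2789, 2407 and 2584 in WT, with a log2 difference of -0.55 (SE 0.09, adjusted p = 2.7e-05, edgeR). Tlr3 was lower too, at -1.35 (SE 0.12, adjusted p = 2.4e-09, edgeR), where 29.2% of all genes were called lower. Neither gene's groups overlapped, as was so for 62.3% of all genes tested. Another 6 receptors were called higher, as were 30.4% of all genes, and of the 6 Tlr9 again passed the filter only through the TLR4-/- label. Tlr13 differed by 3.06 (SE 0.09), Tlr8 by 2.04 (SE 0.12), Tlr7 by 1.59 (SE 0.08), Tlr5 by 1.49 (SE 0.29) and Tlr6 by 0.45 (SE 0.10), with adjusted p-values from edgeR of at most 0.00049. Tlr1 was between them, at 189 ± 5.42 in WT and 217 ± 8.72 in the TLR4-/- label (SD, n = 3), a log2 difference of 0.21 (SE 0.11, adjusted p = 0.103, edgeR). All 13 macrophage markers were called higher with rmCIRP as well, with log2 fold changes of 0.49 to 3.23.

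The conditions can be ordered for each receptor by its mean level. Tlr3 was highest in WT with rmCIRP (908.5 ± 161) and with both proteins (726 ± 119), which overlapped, and lowest in WT with rmTGF-β1 (181 ± 8.23), just under WT with PBS (222 ± 11.8) and without overlap (normalised counts, SD, n = 3). Tlr2 had the same highest pair in the other order, 2809 ± 148 with both proteins and 2593 ± 191 with rmCIRP. The 4 groups of the TLR4-/- label followed, from 2157 ± 316 down to 1769 ± 211, and each of these 6 groups overlapped the next. For Tlr7, Tlr8 and Tlr13 the 4 groups of the TLR4-/- label came first, each overlapping its neighbour in the order. No library of them overlapped any WT library, and the share of all genes with this separation was not counted. Tlr9 had the same order, but it passed the filter on low counts only through that label, so its order is no support. In Tlr13 the groups of the TLR4-/- label lay between 2079 ± 128 and 2203 ± 286. The WT groups of Tlr13 lay between 249.9 ± 34.9 with rmCIRP and 496 ± 34.6 with PBS. Tlr6 was similar but flatter, from 124 ± 5.66 in WT with rmTGF-β1 to 209.8 ± 16.2 in the TLR4-/- label with rmCIRP. In Tlr1, WT with rmCIRP (189 ± 5.42) fell among the groups of the TLR4-/- label, and WT with rmTGF-β1 (39.55 ± 6.62) was lowest.

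To compare levels between receptors, normalised counts were divided by the length of each gene's exons in kb. On this scale Tlr2 had the highest level of the 9 in every condition, from 279 ± 17.8 per kb in WT with PBS to 932 ± 49.1 in WT with both proteins (SD, n = 3). Tlr13 was next in WT with PBS, at 115 ± 8.05 per kb, and behind Tlr3, Tlr7 and Tlr8 with rmCIRP, at 58.1 ± 8.10. Tlr3, at 42.6 ± 2.26 per kb, was behind all endosomal receptors but Tlr9 with PBS, and next after Tlr2 with rmCIRP, at 174.5 ± 31.0. In the TLR4-/- label with PBS the order was Tlr2 (613.5 ± 36.4), Tlr13 (487 ± 7.26), Tlr7 (364 ± 4.43) and Tlr8 (284 ± 6.62), with the other receptors at 67.7 per kb or less. Tlr5 and Tlr9 were lowest in every condition.

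Summed per kb, the surface receptors made up 52.7% ± 0.94 of the level of all 9 in WT with PBS and 69.4% ± 2.48 in WT with rmCIRP (SD, n = 3). With rmTGF-β1 the share was 55.6% ± 1.12, and with both proteins 72.5% ± 1.59. In the TLR4-/- label it stayed between 36.9% ± 1.65 and 39.2% ± 1.21 over the 4 treatments. The WT libraries with rmCIRP (66.5% to 70.95%) did not overlap those with PBS (51.6% to 53.4%). Tlr2 alone held 43.8% ± 0.78 of the summed level in WT with PBS, 62.1% ± 2.22 with rmCIRP and 31.3% ± 1.36 in the TLR4-/- label with PBS. The endosomal sum rose less than the surface sum with rmCIRP in WT, from 301 ± 8.46 to 425 ± 54.6 per kb against 335 ± 21.3 to 960.5 ± 65.9. These shares are a description without a test.

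**Figure D4:**
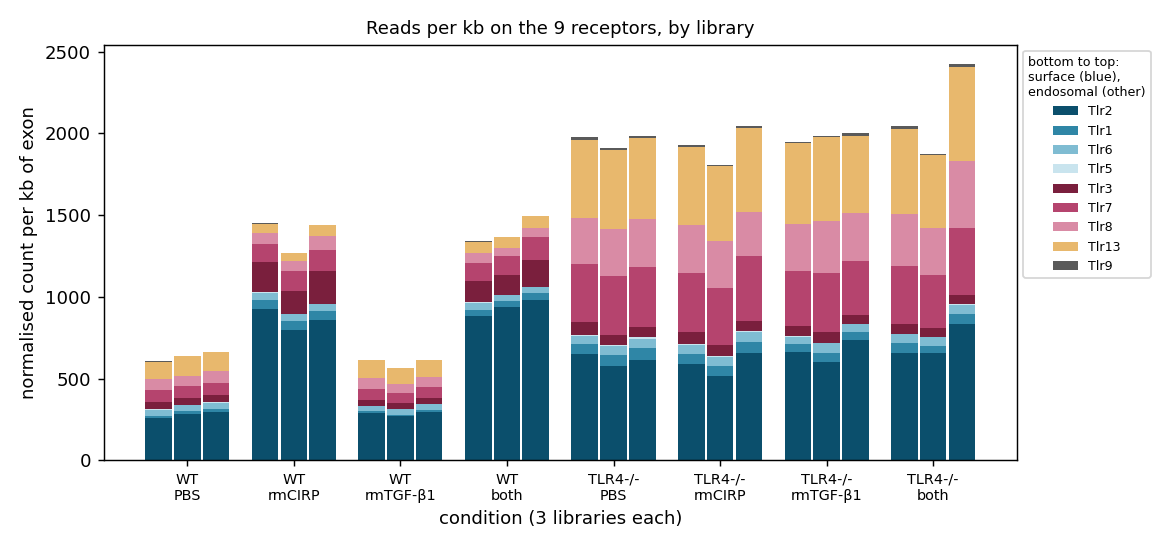
Normalised count per kb of exon (y axis, from 0) of the 9 receptors stacked in each of the 24 libraries by condition (x axis), surface receptors in blue at the bottom. The blue part, mostly Tlr2, grows with rmCIRP in WT, and the Tlr7, Tlr8 and Tlr13 parts are larger in every library of the TLR4-/- label than in any WT library.

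Endosomal receptors need UNC93B1 to leave the endoplasmic reticulum and proteases such as cathepsins and legumain to be cleaved. Of 13 such trafficking and processing genes tested, 2 rose and 5 fell with rmCIRP in WT, where 19.8% of all genes rose and 24.1% fell. Unc93b1 rose by 0.23 on the log2 scale (SE 0.07, adjusted p = 0.014, edgeR), from 1103 to 1233 normalised counts with PBS to 1324 to 1464 with rmCIRP, without overlap, and Ap3b1, an adaptor subunit for transport to endolysosomes, by 0.09 (SE 0.03). Pld4, an exonuclease that degrades endosomal nucleic acids, fell by 0.69 (SE 0.13), and Dnase2a by 0.36 (SE 0.11), Ctsk by 0.25 (SE 0.06), Lgmn by 0.22 (SE 0.05) and Cnpy3 by 0.08 (SE 0.04), each called by edgeR. The median of the list was -0.09 and that of all genes -0.02. With PBS, 9 of the 13 were higher in the TLR4-/- label than in WT and 1 lower, where 23.2% of all genes were higher and 24.0% lower, among them Pld4 (2.69, SE 0.11), Ctss (1.77, SE 0.08) and Unc93b1 (1.66, SE 0.07). Unc93b1 was at 3594 to 3901 normalised counts there.

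Of 7 accessory genes of surface receptors, 3 rose and 2 fell with rmCIRP in WT, again beside 19.8% and 24.1% of all genes, with a median of 0.31. Cd14, a co-receptor that hands ligands to TLR4 and TLR2, went from 1403 to 1688 normalised counts to 4614 to 5436, a log2 difference of 1.70 (SE 0.11, adjusted p = 4.7e-11, edgeR). Its groups were far apart. Lbp, which binds lipopolysaccharide, and Ly96, the MD-2 partner of TLR4, rose by 0.39 (SE 0.18) and 0.31 (SE 0.08), while Cd180 (-0.32, SE 0.12) and Cnpy4 (-0.17, SE 0.04) fell. The groups of Lbp overlapped, at 177 to 371 normalised counts with PBS and 285 to 403 with rmCIRP. In the TLR4-/- label with PBS, 4 were higher and 2 lower than in WT, beside 23.2% and 24.0% of all genes, with Ly86 at 2.98 (SE 0.12), Cd180 at 2.19 (SE 0.11), Cd14 at 1.56 (SE 0.11) and Cd36 at 1.34 (SE 0.11).

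Of 15 shared signalling genes tested, 10 rose and 0 fell with rmCIRP in WT, beside the same 19.8% and 24.1%, with a median of 0.24. The largest change was that of Irf7, a transcription factor downstream of the endosomal receptors, from 90.55 to 113 normalised counts to 2896 to 4482, a log2 difference of 5.19 (SE 0.36, adjusted p = 8.7e-11, edgeR). Tnfaip3 and Irak3, which restrain signalling, rose by 2.38 (SE 0.16) and 1.01 (SE 0.11). Irf5 rose by 0.78 (SE 0.10), the adaptor Myd88 by 0.51 (SE 0.05), Traf3 by 0.37 (SE 0.05) and the TRIF gene Ticam1 by 0.12 (SE 0.05), all called by edgeR. Between the labels with PBS, 6 were higher and 2 lower in the TLR4-/- label, beside the same 23.2% and 24.0%, with Ticam2 at 2.06 (SE 0.17) and Irf5 at 1.76 (SE 0.09). In WT cells given rmTGF-β1, rmCIRP raised 2 and lowered 4 of the 13 trafficking genes, raised 1 and lowered 2 of the 7 accessory genes, and raised 8 and lowered 2 of the 15 signalling genes, where 20.5% of all genes rose and 21.7% fell. In the TLR4-/- label edgeR called none of the genes of these 3 lists with rmCIRP, with or without rmTGF-β1. Of all genes, it called 0% in that label without rmTGF-β1 and 2.69% with it. Irf7 was at 130 to 212 normalised counts with PBS and at 146.5 to 423 with rmCIRP there.

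The genes most like each receptor were taken by Pearson's r of their library-scaled log2 counts over the 24 libraries, among 12311 well-counted genes. The libraries fall into condition groups and share their cell make-up, so r is a description. For Tlr2 they were Ptafr (0.986), AA467197 (0.982) and Bcl2a1a (0.978), the last of a family of near-identical copies whose reads may be split. For Tlr3 they were Tdrd7 (0.984), Parp14 (0.983) and Trim21 (0.982), and for Tlr1 Lcp2 (0.982), Wfdc17 (0.980) and Ampd3 (0.976). Within the 12 WT libraries alone these 9 values ran from 0.961 to 0.995. Tlr7 was closest to Lcp1 and Ptprc (both 0.995) and Tnfaip8 (0.994), and Tlr13 to Myo1f, Dock2 and Alox5ap (all 0.998). Those of Tlr8 were Spp1 (0.994), Ctss and Cd200r4 (both 0.993), and in WT libraries alone the same pairs had r of 0.822, 0.489 and 0.707. Tlr6 was closest to Pirb (0.960), Tmem106a (0.958) and Pid1 (0.956). Tlr5 and Tlr9 were too low for this comparison.

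Tlr1 and Tlr6 are close relatives on chromosome 5, and 340 stretches of 75 bases occur in both transcripts, 10.3% of those of Tlr1 and 9.25% of those of Tlr6. Reads from there could be lost or given to the wrong gene, so the small change of Tlr6 beside the larger one of Tlr1 is uncertain to that extent. Exons of Tlr3 overlap Gm45542 on the other strand, and how strand was set in counting is not given in the sources used here.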

How the data were processed

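RNA of 24 libraries was prepared with a stranded total RNA kit and sequenced on a NextSeq 550. Reads were aligned by the authors using STAR2 and a GENCODE mouse reference, and counted by gene name with ht-seq. The deposited values are these raw counts, with nothing scaled. The build in the submitters' processing notes is NCBIM37, and the counting options are not given in the sources used here. The 5 tally lines below the 55291 gene names of a file, 14.5% to 16.1% of its reads, were left out. Libraries were grouped by their labels, and no pair held identical counts. edgeR 4.0.16 (TMM, filterByExpr with a minimum count of 10, 1 mean per condition) was fitted to all 24 libraries in R 4.3.3, and tested on simulated data. Normalised counts used DESeq2 1.42.0 size factors. A gene was called at an adjusted p below 0.1, the cut-off of the study's methods. The alternatives were DESeq2, RLE scaling, no filter, a mean count of at least 10, a replicate block, the compared libraries alone and each library left out. Exon lengths came from GENCODE M21 (53292 names matched) and promoters from RefSeq GRCm38.p6; no position was moved between builds. The receptors were given by name. Other named genes were those of the pathway and marker lists and the 3 genes most like each receptor. The receptors, lists and tests were chosen with earlier results of these data known.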

Additional observations from a re-analysis of the deposited data

Results flagged for a closer look

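The response to rmCIRP differed between the genotype labels for 5 receptors by the interaction test in edgeR, over all genes tested. The difference, TLR4-/- label minus WT, was -1.69 for Tlr1 (adjusted p = 7.3e-08), -1.68 for Tlr2 (adjusted p = 3.0e-09), -2.01 for Tlr3 (adjusted p = 2.4e-08), -0.70 for Tlr7 (adjusted p = 0.00021) and 0.98 for Tlr13 (adjusted p = 4.8e-06).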

How the results depend on the processing

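Of 39 calls on receptors, 33 kept direction and threshold under every alternative, and the 6 others were lost under some: Tlr5 and Tlr6 with rmCIRP in WT, with and without rmTGF-β1, Tlr1 with rmTGF-β1 in WT and Tlr5 with rmTGF-β1 in the TLR4-/- label. Among the 33 are the calls of Tlr9 between the labels, with PBS and with rmCIRP. Tlr9 passed the filter only through the TLR4-/- label, so these calls are no support. The number of receptors called with rmTGF-β1 in WT was 1, and it was 2 with no filter or with the compared libraries alone, and 0 to 1 with a library left out. In the TLR4-/- label it was 2, and 1 with DESeq2 or no filter, and 1 to 2 with a library left out. The cause was not tested. Numbers of the labels did not pair the libraries (mean correlation 0.012 over 84 pairs). With the replicate block, the number of receptors called was that without it in all 11 comparisons. It was 7 with rmCIRP in WT and 9, with Tlr9 among them, between the labels with PBS. Log2 fold changes that changed sign were all of receptors not called. With a library left out they ranged, for rmCIRP against PBS in WT, Tlr8 -0.114 to 0.144, for both proteins against rmTGF-β1 in WT, Tlr8 -0.139 to 0.0116, for rmTGF-β1 against PBS in WT, Tlr2 -0.0122 to 0.0691 and Tlr5 -0.514 to 0.0904, for rmCIRP against PBS in the TLR4-/- label, Tlr1 -0.112 to 0.00495, Tlr2 -0.142 to 0.0174, Tlr3 -0.0668 to 0.129, Tlr7 -0.0325 to 0.0548, Tlr8 -0.0181 to 0.0527 and Tlr13 -0.0497 to 0.0255, for both proteins against rmTGF-β1 in that label, Tlr2 -0.0299 to 0.173, Tlr5 -0.318 to 0.016, Tlr6 -0.00116 to 0.192, Tlr7 -0.0158 to 0.161 and Tlr13 -0.0329 to 0.15, for rmTGF-β1 against PBS in that label, Tlr9 -0.219 to 0.0671 and Tlr13 -0.0106 to 0.0453, for the difference in the response to rmCIRP, Tlr8 -0.14 to 0.117, for the difference in the response to rmTGF-β1, Tlr6 -0.135 to 0.0576, for the response to rmCIRP with minus without rmTGF-β1 in WT, Tlr6 -0.0676 to 0.0577, Tlr3 -0.163 to 0.0819 and Tlr8 -0.194 to 0.0635. The last sign change was that of Tlr13 with rmTGF-β1 in the TLR4-/- label with no filter (-0.00221). Counts over all genes moved more than those of receptors: in the TLR4-/- label, genes called with rmCIRP numbered 0, but 27 with DESeq2 and 149 with no filter, and those with both proteins against rmTGF-β1 437, but 0 with the compared libraries alone, 662 with DESeq2, 810 with the replicate block and 1580 with no filter. For the difference in the response to rmTGF-β1 they numbered 14, 139 with DESeq2 and 563 with no filter. Depth limited Tlr5 and Tlr9, and a difference that was not called may still exist.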
